A study of Mus musculus with 18 samples.

Results

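The 5S ribosomal RNA genes were followed in Hydro-tRNA-seq libraries of mouse hippocampus. They were taken as every row of the table of normalized reads whose name starts with n-R5s or Rn5s, which gave 95 rows of 3574 entries. Many of these rows held the same reads, and 59 distinct entries were left once rows that were identical or differed by at most 5% of their reads, summed over the mice, were counted once.

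The libraries came from 18 male mice, 1 library per mouse, and the mice are named below by their group and number. WT mice had a B6SJL background, and 5xFAD mice, a model of Alzheimer's disease, carry human amyloid precursor protein and presenilin transgenes with familial mutations, driven by the neuronal Thy-1 promoter. At 6 months of age, both hippocampi received an rAAV2/8 that expresses GFP and, from an H1 promoter, an shRNA that is either a control (shCT) or directed at RTP801 (shRTP801), a stress-responsive protein, and the tissue was taken 4 weeks later. There were 5 WT shCT and 4 WT shRTP801 mice, and among 5xFAD mice 3 received shCT and 6 shRTP801. All mice therefore carried a virus, and it was aimed at neurons of the CA1 and the dentate gyrus, whereas the RNA came from whole hippocampi. Fewer cells of a type and less RNA per cell cannot be told apart in such bulk samples. The mRNA of RTP801 was not analysed here, so its silencing was not checked.

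5S rRNA is the smallest RNA of the large ribosomal subunit. In mammals it is read from a tandem array of near-identical repeats that lies apart from the genes of the other cytosolic rRNAs, and many dispersed pseudogenes resemble it. It is made by RNA polymerase III, as tRNAs are, but its gene needs a dedicated factor, TFIIIA, whereas the other rRNAs of the cytosolic ribosome are made by RNA polymerase I. In Hydro-tRNA-seq, small RNA of tRNA size is cut from a gel and broken by hydrolysis before sequencing, so that reads are fragments. The gel window was 60 to 100 nt, while RefSeq (GRCm38.p6) gives the 5S genes a length of 117 to 121 nt. The 5S reads thus came from a molecule whose full length lies outside the window, and how they entered the libraries was not tested.

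The libraries held 17855309 to 33597681 reads with copies counted once, and 3 of them stood apart from the rest. In WT shCT 5, WT shRTP801 4 and 5xFAD shRTP801 7, 64.9%, 47.6% and 57.7% of the entries were at 0, against 28.9% to 35.8% in the other 15. Mature tRNAs took 98.7%, 98.1% and 98.0% of the reads in these 3 libraries. The tests below use all mice, and values without these libraries are given beside them. Of small RNAs known from brain (Snord116 copies and microRNA genes such as Mir124a-1), 23 rows were in the table, 10 with copies once, and their summed reads ran from 0 to 1572 per mouse, with 1 or 0 in the 3 libraries that stood apart.

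The 5S rows fell into 4 sets of copies and 55 single rows. The largest set held 28 rows, of which 24, counting Rn5s itself, had the same reads in all 18 mice, and Rn5s stands for it here. The next sets were those of n-R5s115 (6 rows, with n-R5s101, n-R5s114, n-R5s119, n-R5s129 and n-R5s131), n-R5s106 (3 rows, with n-R5s118 and n-R5s130) and n-R5s112 (3 rows, with n-R5s120 and n-R5s125). Counting only identical rows as copies left 66 entries, and a limit of 20% left 42, with 37 rows in the largest set. RefSeq matched 66 of the 95 rows by symbol, 52 as rRNA and 14 as pseudogenes, and 29 had no match. The name of the rows thus covers genes and pseudogenes alike.

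In RefSeq, 42 of the rows lay in 1 tandem cluster of 49 genes, with a median of 1698 nt from start to start, and 24 rows lay elsewhere. Within the cluster, gene models of 121 nt made up 25 rows of the Rn5s set, and 2 further rows of that set had 119 nt. All cluster rows of the n-R5s115, n-R5s106 and n-R5s112 sets had 119 nt. The sets, which were formed from reads alone, therefore followed the length of the annotated gene, with those 2 rows as the exceptions. n-R5s136, a single row of the cluster, had 121 nt.

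Most 5S reads were on sets of copies represented by a row of the tandem cluster. The sets of Rn5s, n-R5s115 and n-R5s106 held 84.7% of the 21189765 reads summed over distinct entries. The 52 entries whose row with the most reads lay outside the cluster or had no match held 8.43%. The Rn5s set also took in n-R5s193, a row without a match, which held 6494270 reads, 95.8% of those on Rn5s. The counts thus do not place these reads on the array alone. With the Rn5s entry set to 100%, the pooled reads were 86.2% on n-R5s115, 78.3% on n-R5s106, 11.1% on n-R5s112 and 7.74% on n-R5s136. The following entries of the 10 with the highest mean were n-R5s33 (4.14%), n-R5s185 (3.68%), n-R5s2 (3.49%), n-R5s28 (3.09%) and n-R5s64 (2.89%). The pseudogenes were low. Their 14 entries held 0.000442% to 0.549% of the Rn5s reads, with n-R5s127, which lies in the cluster, the highest, and 67770 reads in all. Reads were seen in all 18 mice for 29 of the entries, while 30 had 0 reads in at least 1 mouse. Rows this alike share fragments, so reads on a single row cannot be assigned to that gene alone.

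**Figure D1:**
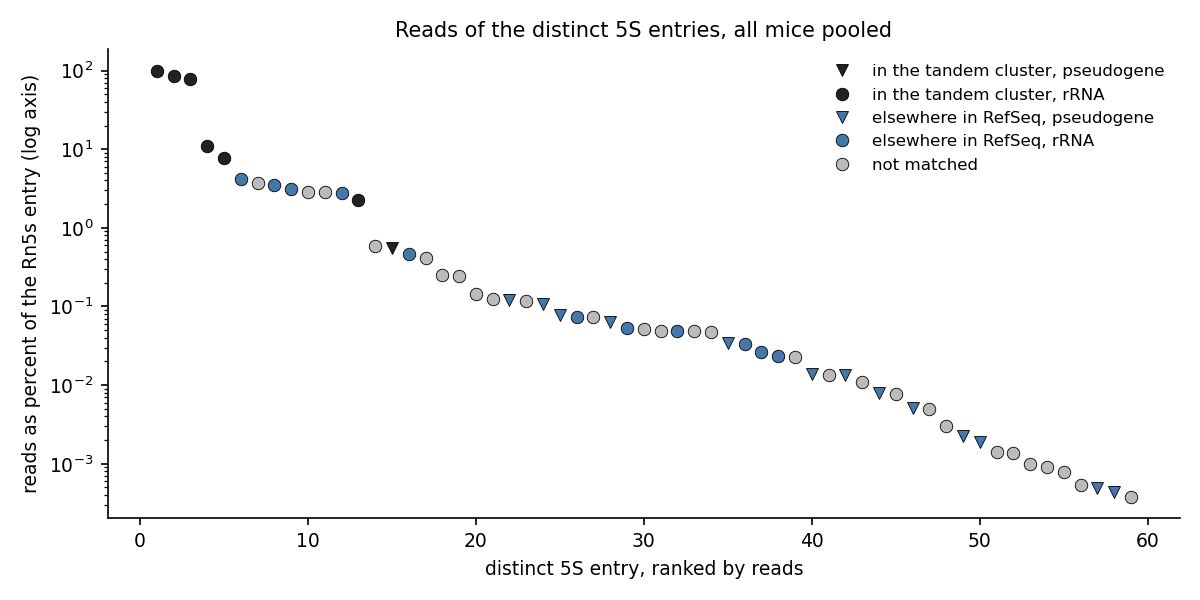
Reads of each distinct 5S entry, pooled over the mice, as a percent of the Rn5s entry (log axis), in order of reads. Black points lie in the RefSeq tandem cluster, blue points elsewhere in RefSeq and grey points had no match, with pseudogenes as triangles. Placed by the row with the most reads of each set, the first 5 entries all lie in the cluster, and no pseudogene exceeds 0.549%.

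The treatment of copies set the size of the 5S fraction. Summed over all mice, 5S reads came to 6782095 on the Rn5s row alone, 21189765 over distinct entries and 243992337 with every row counted. The sum over distinct entries is used below, with the Rn5s row alone as its lower bound, since a fragment common to several entries is counted in each. The former was 2.84 to 6.78 times the latter (median 3.13). With every row counted, the 5S share of a library ran from 0.0756% to 65.1%, 4.65 to 11.3 times that with copies counted once.

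**Figure D2:**
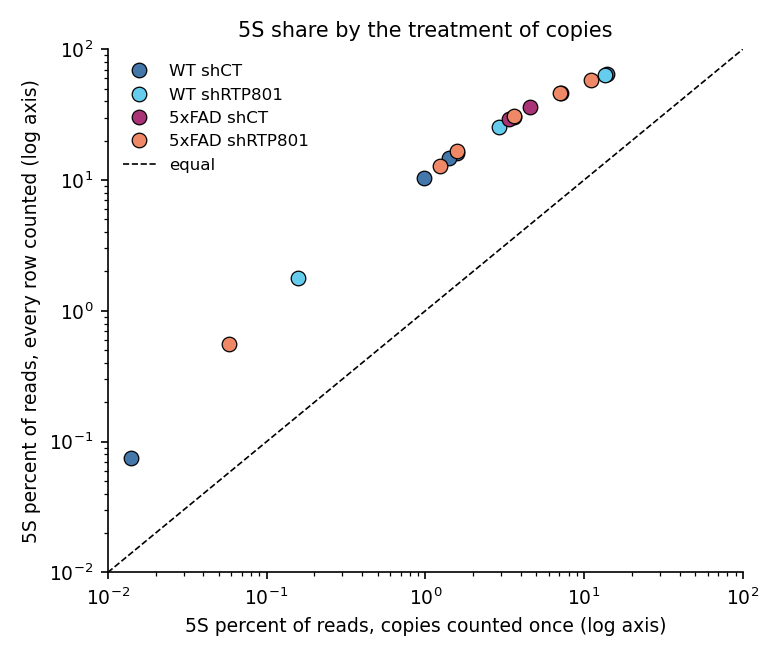
The 5S percent of all reads in each of the 18 mice with every row counted (y, log axis) against that with copies counted once (x, log axis), coloured by group. All mice lie above the dashed line of equality, by 4.65 to 11.3 times.

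The 5S share ranged over 3 orders of magnitude between mice, from the lowest to the highest WT shCT mouse, and 14.2-fold over the 15 libraries that did not stand apart. In WT shCT mice it was 1.58% in mouse 3, 0.0140% in mouse 5, 1.42% in mouse 6, 0.986% in mouse 11 and 13.97% in mouse 15. In WT shRTP801 mice it was 0.157% in mouse 4, 2.92% in mouse 10, 3.63% in mouse 17 and 13.6% in mouse 21. The highest mouse of each WT group thus stood well above the others, and the lowest was a library that stood apart. In 5xFAD shCT mice the share was 3.36% in mouse 1, 7.13% in mouse 16 and 4.60% in mouse 18, the narrowest range of the groups. In the 6 5xFAD shRTP801 mice it ran from 0.0581% (mouse 7) over a median of 2.61% to 11.01% (mouse 19). Shares above 7% were seen in 5 mice, at least 1 of each group.

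The Rn5s row alone gave the same picture at a lower level. It took 0.00206% to 4.92% of the reads in WT shCT, 0.0496% to 4.65% in WT shRTP801, 1.17% to 2.37% in 5xFAD shCT and 0.0152% to 3.76% in 5xFAD shRTP801 mice. In the lowest library, WT shCT 5, the Wilson 95% interval was 0.00187% to 0.00227%, which covers counting error only. Counting error was thus far below the spread between mice.

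**Figure D3:**
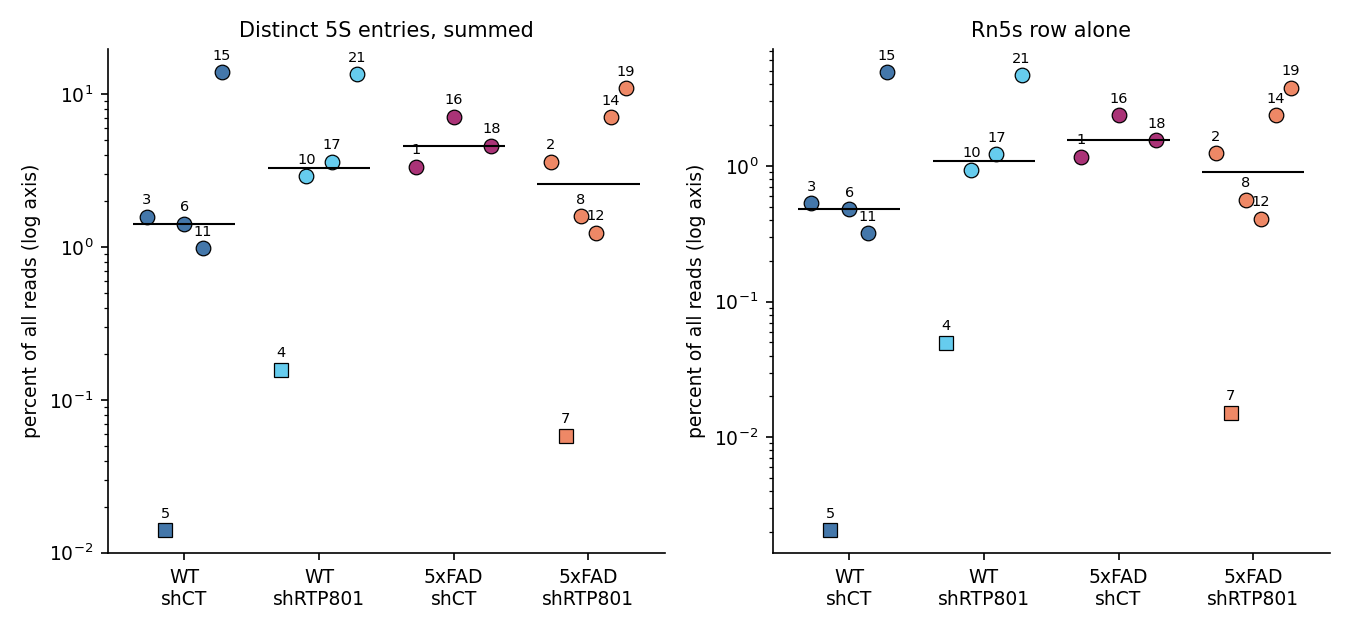
The 5S percent of all reads (log axis) in each mouse, by group, for the sum over distinct 5S entries (left) and for the Rn5s row alone (right). Numbers are mouse numbers, lines are group medians, and squares are the 3 libraries that stood apart. All 4 groups overlap, and 5xFAD shCT mice sit between 3.36% and 7.13% on the left.

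The first comparison asked whether the 5S share differed between genotypes or treatments. Under shCT it was 3.59% ± 5.83 (SD, n = 5) in WT and 5.03% ± 1.92 (SD, n = 3) in 5xFAD mice, and under shRTP801 it was 5.07% ± 5.86 (SD, n = 4) in WT and 4.10% ± 4.19 (SD, n = 6) in 5xFAD mice. 5xFAD shCT and WT shCT mice differed by 1.44 percentage points (two-sided exact permutation p = 0.821), with an interval of -9.72 to 9.11, the differences that the exact test does not reject at 0.05. For WT shRTP801 against WT shCT the difference was 1.47 (exact p = 0.524, interval -7.60 to 11.3). For 5xFAD shRTP801 it was -0.930 against 5xFAD shCT (exact p = 0.714, interval -7.07 to 6.42) and -0.966 against WT shRTP801 (exact p = 0.748, interval -8.93 to 5.86). No difference exceeded the spread between mice, and the intervals are wider than the shares themselves. Without the 3 libraries that stood apart the differences were 0.541, 2.21, -0.122 and -1.79, with exact p of 0.486 to 0.982.

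Single mice moved these values. Without WT shCT 15, the 4 WT shCT mice lay between 0.0140% and 1.58%, all below the 3 5xFAD shCT mice, and the difference was 4.03 points (exact permutation p = 0.0286, the smallest that 3 against 4 mice can give, not adjusted). Without WT shCT 5 it was 0.541 (exact p = 0.971), and without 5xFAD shCT 16 it was 0.386 (exact p = 1). For WT shRTP801 against WT shCT the difference was 4.07 without WT shCT 15, 3.11 without WT shRTP801 4, 0.576 without WT shCT 5 and, with the other sign, -1.36 without WT shRTP801 21 (exact p = 0.114 to 0.946). 5xFAD shRTP801 against WT shRTP801 turned to 1.87 without WT shRTP801 21 (exact p = 0.548) and ran from -2.60 to that value over all mice left out in turn. 5xFAD shRTP801 against 5xFAD shCT ran from -2.31 without 5xFAD shRTP801 19 to 0.119 without 5xFAD shCT 16 (exact p = 0.929).

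Against mature tRNA, the other main product of RNA polymerase III in these libraries, 5S varied still more. WT shCT mice had 22.5 (mouse 3), 0.142 (mouse 5), 18.7 (mouse 6), 11.9 (mouse 11) and 403 (mouse 15) 5S reads per 1000 mature tRNA reads. WT shRTP801 mice had 1.60 (mouse 4), 61.0 (mouse 10), 85.0 (mouse 17) and 369 (mouse 21). 5xFAD shCT mice had 61.9 (mouse 1), 174 (mouse 16) and 112 (mouse 18). The 5xFAD shRTP801 mice ran from 0.593 over a median of 40.7 to 219. The highest and the lowest library differed 2856-fold, and 33.8-fold over the 15 libraries without the 3 apart.

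On the log2 scale, the ratio of 5S to mature tRNA was -6.34 ± 4.12 (SD, n = 5) in WT and -3.23 ± 0.75 (SD, n = 3) in 5xFAD mice under shCT, and -4.58 ± 3.33 (SD, n = 4) in WT and -5.32 ± 3.03 (SD, n = 6) in 5xFAD mice under shRTP801. It was 3.11 higher in 5xFAD shCT than in WT shCT mice (exact permutation p = 0.286, interval -4.39 to 10.90) and 1.76 higher in WT shRTP801 than in WT shCT mice (exact p = 0.516, interval -3.81 to 7.98). 5xFAD shRTP801 mice differed by -2.09 from 5xFAD shCT mice (exact p = 0.310, interval -6.99 to 1.99) and by -0.74 from WT shRTP801 mice (exact p = 0.714, interval -5.69 to 3.97). The effect of the shRNA in 5xFAD minus that in WT mice was -3.86 (exact permutation of treatments within genotypes, p = 0.227). None of these differences passed the test, and all groups overlapped. Without the 3 libraries that stood apart, they were 1.50, 1.72, -1.01 and -1.23 for the comparisons and -2.73 for the interaction (exact p = 0.151 to 0.357). Leaving out WT shCT 5 alone gave 1.50 in the first and 0.15 in the second comparison, and leaving out 5xFAD shRTP801 7 alone gave -1.01 in the third and 0.33, with the other sign, in the last. The last also turned, to 0.30, without WT shRTP801 21, and was -2.31 without WT shRTP801 4. The second was 0.72 without WT shRTP801 21, 3.33 without WT shRTP801 4 and 3.02 without WT shCT 15. Over all mice left out in turn, the interaction ran from -5.42 without WT shRTP801 4 to -2.24 without WT shCT 5 (exact p = 0.0910 to 0.418). The 4 comparisons share groups, so their values are not independent of each other.

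The share of mature tRNA itself moved with these ratios. It was 34.7% to 98.7% of the reads in WT shCT, 36.8% to 98.1% in WT shRTP801, 40.9% to 54.3% in 5xFAD shCT and 50.2% to 98.0% in 5xFAD shRTP801 mice. As shares of 1 library add up, a higher 5S read share and a lower tRNA read share cannot be told apart from these values. Precursor tRNAs, which are short-lived transcripts, gave 47875 to 318628 reads per library. 5S reads per precursor read ran from 0.0121 to 90.4 in WT shCT, from 0.159 to 48.8 in WT shRTP801, from 14.4 to 44.2 in 5xFAD shCT and from 0.0344 to 40.4 in 5xFAD shRTP801 mice.

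Other small RNAs were used as references outside RNA polymerase III. Against the 120 genes named Snora or Snord, which guide the modification of rRNA and are read by RNA polymerase II, 5S reads per snoRNA read were 0.626 to 41.4 in WT shCT (median 1.49), 0.583 to 4.74 in WT shRTP801 (median 1.94), 0.619 to 1.43 in 5xFAD shCT (median 0.744) and, in 5xFAD shRTP801 mice, 0.897 to 11.9 (median 2.48). Against the 22 mt-tRNAs, which the mitochondrial polymerase makes, they were 0.0735 to 4.44 in WT shCT, 0.0824 to 0.370 in WT shRTP801, 0.120 to 0.186 in 5xFAD shCT and 0.128 to 1.82 in 5xFAD shRTP801 mice. Here the libraries that stood apart, which were lowest against tRNA, were highest or among the highest of their groups.

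The spread of 5S over the other 15 libraries was smaller against these references. It was 6.15-fold against snoRNA and 5.62-fold against mt-tRNA, against 14.2-fold for the share and 33.8-fold for the ratio to mature tRNA. It did not vanish. WT shRTP801 10, 17 and 21 had mt-tRNA shares of 35.4%, 40.8% and 36.6% and snoRNA shares of 5.00%, 4.79% and 4.35%, and their 5S shares were 2.92%, 3.63% and 13.6%.

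5S relative to snoRNA was 1.54 higher on the log2 scale in 5xFAD shRTP801 than in 5xFAD shCT mice, with means of 1.34 and -0.20, and this gave the lowest p of the family (exact permutation p = 0.107, interval -0.63 to 4.00). The same comparison against mt-tRNA gave 1.13 (exact p = 0.226, interval -0.73 to 3.38). Both signs were opposite to that against mature tRNA. Without 5xFAD shRTP801 7 the 2 values were 1.09 and 0.62 (exact p = 0.125 and 0.232). 5xFAD shCT mice were also the lower group beside WT shCT mice, and differed from WT shCT mice by -1.48 against snoRNA (exact p = 0.411, interval -6.06 to 2.07) and by -0.81 against mt-tRNA (exact p = 0.786, interval -5.21 to 3.35), whereas the difference against mature tRNA was positive. Without WT shCT 5 the difference against snoRNA was -0.46 (exact p = 0.486) and that against mt-tRNA 0.24 (exact p = 0.743), so that the sign of the latter rested on this library. With all mice, the sign of a 5S difference thus depended on the RNA it was set against. Over the 17 tests of shares and ratios, 0 had an unadjusted p under 0.05, and the Benjamini-Hochberg adjusted p was 0.833 for each.

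**Figure D4:**
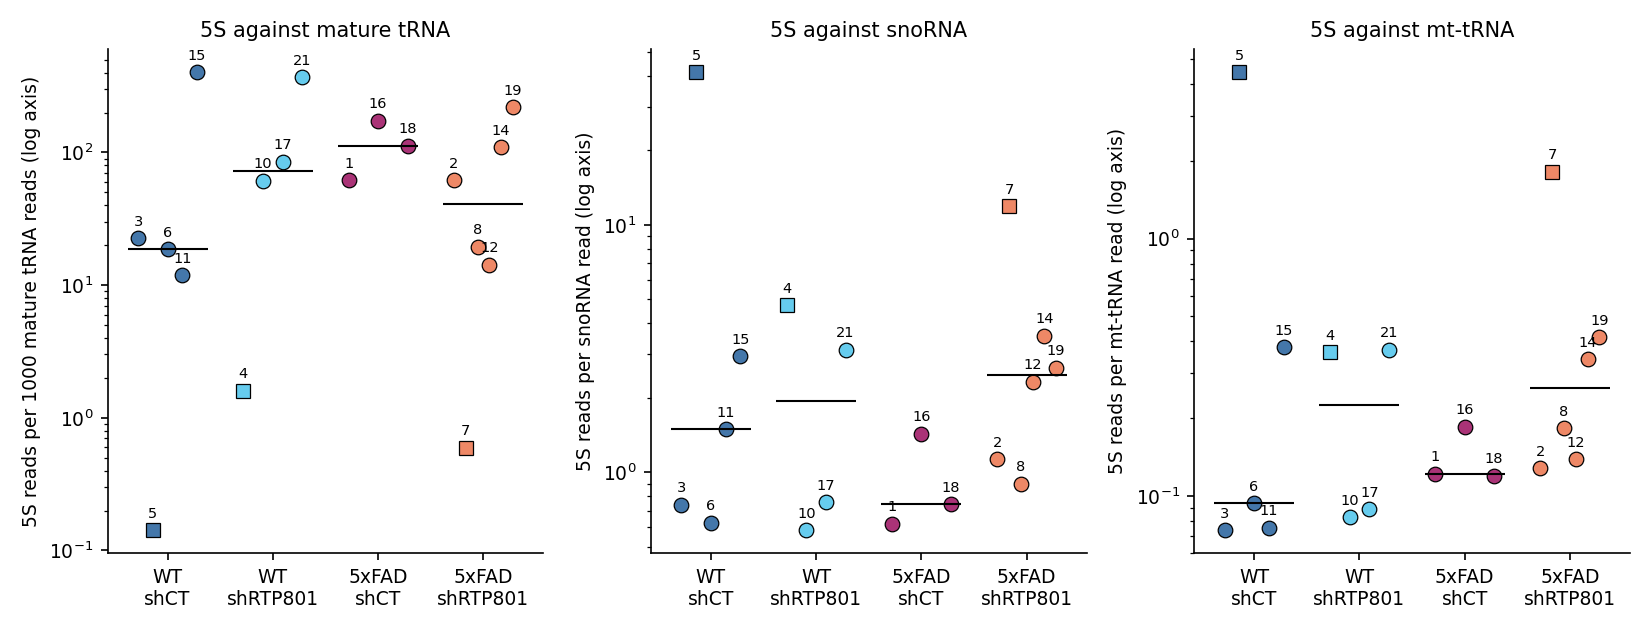
5S reads per 1000 mature tRNA reads (left), per snoRNA read (middle) and per mt-tRNA read (right) in each mouse, by group, all on log axes. Numbers are mouse numbers, lines are group medians, and squares are the 3 libraries that stood apart, which lie lowest in the left panel, and mouse 5 of WT shCT highest in the other panels.

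Outside the 3 libraries that stood apart, the make-up of the 5S reads varied less than their amount. The rows share fragments, which ties their reads together by the counting alone, so steady ratios between them are no result about the RNA. Over the 15 libraries without those apart, reads on n-R5s115 were 78.6% to 96.9% of those on Rn5s, reads on n-R5s106 63.1% to 82.5%, on n-R5s112 7.30% to 13.7% and on n-R5s136 4.19% to 9.80%. The dispersed and unmatched entries varied more, with n-R5s33 at 1.56% to 5.39%, n-R5s185 at 1.28% to 4.89% and n-R5s64 at 2.00% to 7.14%. n-R5s28 was steady at 2.49% to 3.54%.

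WT shCT 5 had another make-up, on few reads. Its Rn5s row held 409 reads, and the sum of 2773 over distinct entries counts shared fragments in each entry. n-R5s106, n-R5s112, n-R5s185 and n-R5s136 held 387, 335, 332 and 331 reads, and whether these were the same fragments was not tested. In this mouse n-R5s115 was at 20.05% of Rn5s, while n-R5s106 was at 94.6%, n-R5s112 at 81.9%, n-R5s136 at 80.9% and n-R5s185 at 81.2%, close to Rn5s. Others were far below, with n-R5s33 at 32.8%, n-R5s64 at 1.71% and n-R5s28 at 0.733%, and 31 of the 59 entries had reads. 5xFAD shRTP801 7 had 18.04% on n-R5s112, 15.8% on n-R5s136 and 13.7% on n-R5s185, also above the other libraries, and 0.876% on n-R5s28, below them. WT shRTP801 4 was at 8.49%, 5.80% and 3.42% on the former 3 entries, within the range of the other 15, and at 0.824% on n-R5s28.

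**Figure D5:**
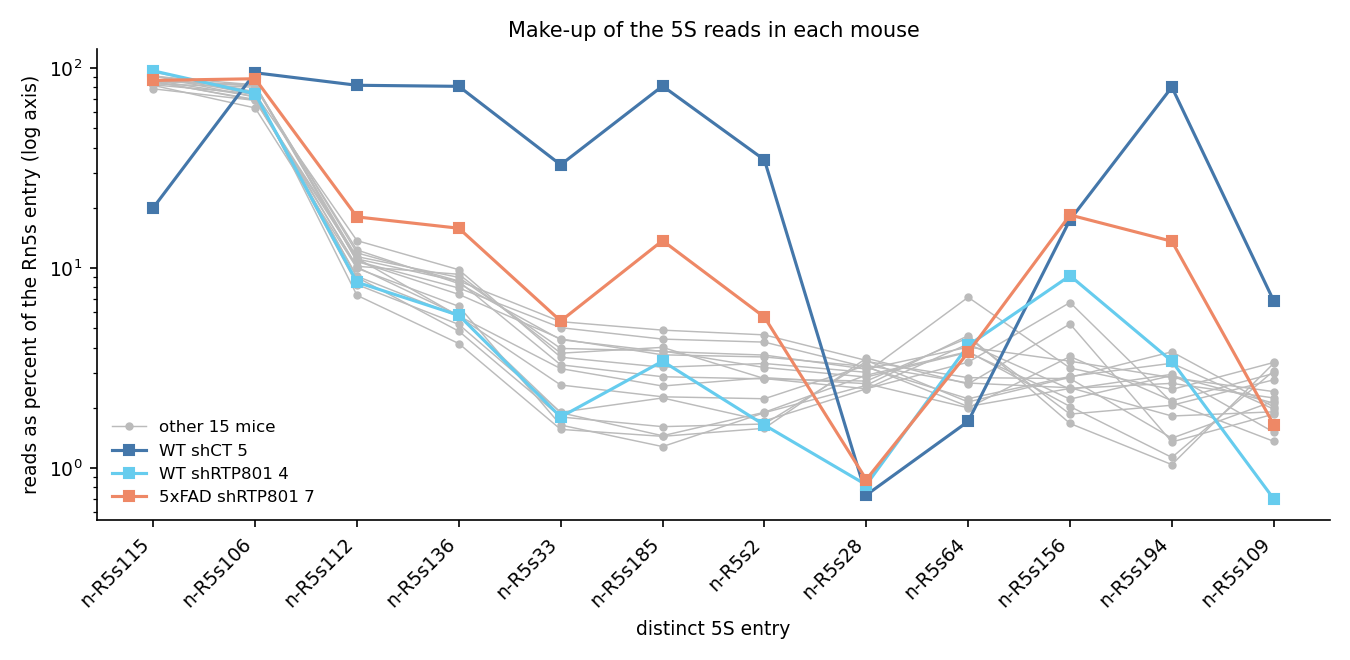
Reads of the 12 distinct 5S entries that follow Rn5s, as a percent of the Rn5s reads in the same mouse (log axis). Grey lines are 15 mice and coloured lines the 3 libraries that stood apart. The grey lines run close together (78.6% to 96.9% on n-R5s115), while WT shCT 5 lies there at 20.05% and stays near 80% on n-R5s112, n-R5s136, n-R5s185 and n-R5s194.

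Single 5S entries were then compared by limma on log2 of the deposited value plus 1, fitted on all 1578 entries with a mean of at least 10, of which 47 of the 59 5S entries were part. The deposited value of Rn5s was 112024, 875, 88011, 64591 and 1394535 in WT shCT mice 3, 5, 6, 11 and 15. It was 15124, 172646, 322429 and 936223 in WT shRTP801 mice 4, 10, 17 and 21, and 222531, 570431 and 358202 in 5xFAD shCT mice 1, 16 and 18. In 5xFAD shRTP801 mice it ran from 5396 over a median of 174055 to 754259. The 5xFAD shCT values all lay within the range of WT shCT, whose lowest and highest mice were also the extremes of all mice.

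For Rn5s the log2 difference was 2.57 ± 1.94 (SE, limma adjusted p = 0.527) in 5xFAD shCT against WT shCT, and 1.48 ± 1.78 (adjusted p = 0.980) in WT shRTP801 against WT shCT. In 5xFAD shRTP801 it was -1.59 ± 1.88 against 5xFAD shCT (adjusted p = 0.751) and -0.50 ± 1.71 against WT shRTP801 (adjusted p = 1). n-R5s115 gave 2.87 ± 2.16 and n-R5s106 2.46 ± 1.91 in the first of these comparisons (both adjusted p = 0.527). The standard errors were of the size of the differences.

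By limma, 0 of the 47 5S entries passed an adjusted p of 0.05 in each of the 4 comparisons, as did 0% of all 1578 entries. At an unadjusted p under 0.05, 1 of 47 passed in 5xFAD shCT against WT shCT (2.85% of all entries), 0 in WT shRTP801 against WT shCT (1.14%), 1 in 5xFAD shRTP801 against 5xFAD shCT (1.27%) and 0 in 5xFAD shRTP801 against WT shRTP801 (0.0634%). On the recovered reads, edgeR and DESeq2 called 0 5S entries in the 4 comparisons, also at an unadjusted p under 0.05, which edgeR gave to 3.23%, 1.73%, 1.28% and 0.891% of all entries and DESeq2 to 185, 66, 111 and 32 of 2198 (8.42%, 3%, 5.05% and 1.46%). Without the 3 libraries that stood apart, limma gave such a p to 1, 1, 1 and 2 of 48 5S entries, with 8.24%, 10.5%, 10.6% and 12.1% of all entries, and called 0 after adjustment. The entry that passed unadjusted in both cases was n-R5s93, named here after its values were seen, a low row at 0 to 52.2 per mouse. Its log2 difference was 2.58 ± 1.20 in 5xFAD shCT against WT shCT (limma adjusted p = 0.527) and -2.72 ± 1.16 in 5xFAD shRTP801 against 5xFAD shCT (adjusted p = 0.745). The 2 groups compared overlapped for every 5S entry tested. Over all entries, the first group lay wholly above the second in 2.09%, 0.190%, 0.951% and 0% and wholly below it in 2.03%, 0.507%, 4.06% and 0%, in the same order of comparisons.

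In limma on the deposited values with all mice, the 5S entries tested took the same sign within each comparison. The median log2 difference was 2.42 in 5xFAD shCT against WT shCT (47 of 47 positive), 1.40 in WT shRTP801 against WT shCT (47 of 47), -1.71 in 5xFAD shRTP801 against 5xFAD shCT (0 of 47) and -0.87 in 5xFAD shRTP801 against WT shRTP801 (0 of 47). The median of all 1578 entries was itself shifted, to 1.09, 0.45, -0.60 and -0.15, and relative to it the 5S medians were 1.33, 0.96, -1.11 and -0.72. With each mouse centred on its median, 43, 46, 1 and 5 of the 47 were positive, so that a few signs turned. The medians of all entries were then 0.03, -0.15, 0.13 and 0.12. On the recovered reads the 5S medians were smaller, at 0.62, 0.50, -0.60 and -0.55 by edgeR, where the medians of all entries were 0.20, 0.07, 0.05 and -0.09, and at 0.60, 0.51, -0.86 and -0.79 by DESeq2, where those of all entries were 0.46, 0.15, -0.42 and -0.14. Relative to all entries, DESeq2 thus gave 0.14 in the first comparison. Single mice moved the limma medians too. With each mouse left out in turn, the first ran from 1.36 (without WT shCT 5) to 3.40 (without WT shCT 15), the second from 0.47 (without WT shCT 5) to 2.56 (without WT shRTP801 4), the third from -1.11 (without 5xFAD shRTP801 7) to -2.23 (without 5xFAD shRTP801 19) and the last from -0.11 (without WT shRTP801 21, with 21 of 47 positive) to -1.92 (without WT shRTP801 4).

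Here too WT shCT 15 had a large part. Without this mouse, 27 of 47 5S entries had an unadjusted p under 0.05 in limma for 5xFAD shCT against WT shCT, with 12.6% of all entries, and 7 of 47 for WT shRTP801 against WT shCT, with 3.70% of all entries. The lowest adjusted p of a 5S entry was 0.337 and 0.747, respectively. Since the rows share reads, the entries are not separate observations.

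The other RNA polymerase III products of the table were described by the same fit. They were the Y RNAs Rny1 and Rny3, which bind the Ro protein, and the 7SL-related Rn7s1, Rn7s2 and Rn7s6. The list also held the 7SK RNA Rn7sk, a regulator of transcription elongation, the U6 snRNA Rnu6 and Rnu6-ps2, by its symbol a U6 pseudogene. The RNase MRP and RNase P RNAs Rmrp and Rpph1, the vault RNA Vaultrc5 and the serine tRNA genes n-TStga1 and n-TSaga9 completed it. Rn7s1 and Rn7s2 were copies, which left 12 entries. Of these, 12 of 12 were positive in 5xFAD shCT against WT shCT (median log2 difference 2.58), 11 of 12 in WT shRTP801 against WT shCT (1.03), 1 of 12 in 5xFAD shRTP801 against 5xFAD shCT (-2.15) and 2 of 12 in 5xFAD shRTP801 against WT shRTP801 (-0.47). Of all 1578 entries, 1042, 1027, 573 and 622 were positive in the same order of comparisons, so most of the table shared these directions. By limma, 0 of 12 passed the adjusted p in each comparison. At an unadjusted p under 0.05 only n-TSaga9 passed, in WT shRTP801 against WT shCT (2.04 ± 0.90, adjusted p = 0.980).

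By mean value, the leading entries of these products were Rny3, Rny1 and Rn7s2. Rny3 gave 1 to 47369 reads per mouse (median 6132), and its log2 difference in 5xFAD shCT against WT shCT was 3.73 ± 2.67 (limma adjusted p = 0.527). Rny1 gave 0 to 27009 reads (median 6801) and 3.93 ± 2.99 in the same comparison (adjusted p = 0.527). Rn7s2 gave 12 to 27085 reads and 2.79 ± 2.13 (adjusted p = 0.527). The differences of the 5S entries lay in the same direction as those of most of these 12 entries in each comparison, and none passed the adjusted p. This direction was not particular to RNA polymerase III products, as the medians of all 1578 entries (1.09, 0.45, -0.60 and -0.15) had the same signs. Mature tRNA as a whole is not among the 12. Its mean share of the reads was lower for 5xFAD shCT mice (45.4%) than for WT shCT (72.5%) or 5xFAD shRTP801 mice (73.4%), the reverse of the 5S direction.

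Of the other rRNAs, 3 were in the table. The mitochondrial rRNAs mt-Rnr1 and mt-Rnr2, whose full transcripts are far longer than the gel window, gave 0 to 23569 and 2 to 23528 reads per mouse. Their log2 differences were 4.34 ± 3.04 and 4.13 ± 2.63 in 5xFAD shCT against WT shCT (both limma adjusted p = 0.527), and -3.72 ± 2.95 and -3.84 ± 2.54 in 5xFAD shRTP801 against 5xFAD shCT (both adjusted p = 0.745). n-R5-8s1, a 5.8S rRNA, gave 0 to 15 reads and was too low to be tested.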

How the data were processed

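Both the 5S rows and the lists were chosen with earlier results of these data known. The authors merged and mapped the reads and counted them with tRAX (version not given in the sources used here), and the submitters' processing notes name the build mm39. The deposited values are a normalized signal, counts divided by a size factor per library. Every value was a whole multiple of the smallest non-zero value of its column (100%, tolerance 0.001), which gave back the reads.

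Rows whose reads differed by at most 5% were joined by single linkage and represented by the row with the most reads. A share is relative to all tRNA, other and 5S reads, with 298 copies of other genes and 10 rows that repeat a 5S row left out. The snoRNA reference takes only genes named Snora or Snord. Names and lengths came from RefSeq (GRCm38.p6), whose coordinates are not given, since the build differs, and 5S sequences were not used here.

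Shares and log2 ratios were compared by two-sided exact permutation of group means with Benjamini-Hochberg adjustment over 17 tests, the interaction over 10584 assignments. Intervals invert the exact test at 0.05. Entries were tested with limma 3.58.1 (R 4.3.3) on log2(value + 1) in 1 fit over 4 groups, and, as alternatives on the recovered reads, with edgeR 4.0.16 and with DESeq2 1.42.0. Other alternatives were the copy limit, the row counted, pseudocounts, filters, centring, a trend and leaving out mice. Leaving out the 3 libraries that stood apart (over 40% of entries at 0) was added after seeing the data. The tests were tested on simulated data, which held no libraries that stood apart, so this does not cover the spread between mice seen here. Python 3.11.15, numpy 2.4.6, pandas 2.3.3, scipy 1.17.1, statsmodels 0.14.6 and matplotlib 3.10.9 were used. The text names the 10 distinct 5S entries with the highest mean, any Rn5s row, any entry with an adjusted p under 0.05 and, of the other RNA polymerase III products and rRNAs, those in the table.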

Additional observations from a re-analysis of the deposited data

Results flagged for a closer look

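The 5S share of WT shCT 15 was 13.97% of the reads, far from the other 4 mice of its group. Its gap to the nearest of them was 0.887 of the range of the group, above the Dixon limit of 0.71 for 5 mice. Of the 12 groups of values checked in this way this was the only 1. For normally distributed values, chance alone is known to mark about 5% of groups. Whether the values checked here are so distributed was not tested. The library had mt-tRNA and snoRNA shares of 36.9% and 4.73% and a mature tRNA share of 34.7%, the lowest of the 18, and their part in its 5S share was not tested.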

How the results depend on the processing

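Of 268 values of shares and ratios under an alternative, 1 passed an unadjusted p of 0.05. This was the 5S share in 5xFAD shCT against WT shCT mice, which ran from 0.386 to 4.03 percentage points when each mouse was left out in turn, with the upper value (exact permutation p = 0.0286) reached without WT shCT 15. The next lowest p was 0.0571. The sign turned in 10 of these values, 8 of them on leaving out a mouse and 2 without the 3 libraries that stood apart, where the ratio to mt-tRNA in 5xFAD shCT against WT shCT and in WT shRTP801 against WT shCT mice became 0.24. The number of 5S entries called was 0 in each of 76 further counts, each 1 comparison under 1 alternative, by limma, edgeR or DESeq2. No paired analysis was possible because the mouse numbers are unique to each mouse and no group shares one with another. The 5S totals were 2773 to 4327778 per mouse, with shared fragments counted in each entry, and the Rn5s row alone held 409 to 1378681 reads. For the Rn5s row, counting error was far below the spread between mice. A single 5S row cannot be told from its copies by reads.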

Other observations

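Outside the names used to choose the 5S rows, 10 further rows of the table repeated a 5S row within the limit of 5%. Of these, 7 lay in the tandem cluster of RefSeq, where they are annotated as rRNA. Gm26391, Gm22109, Gm25212 and Gm22291 held 6782095 reads each, the same as Rn5s, and Gm23284 held 6781439, while Gm25018 and Gm24312 held 6487560 and 5311432. Gm47301, with 6062363 reads, Gm47285, with 196039, and Gm47281, with 40238, had no match. These rows were left out of all 5S sums and of the total used for the shares. Only the alternative that sets every row of the table below the line counted them in its total.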
